A study of Mus musculus with 6 samples.

Results

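The circRNAs described here come from 3 hosts counted as noncoding: Rn45s, the precursor of ribosomal RNA, 2810055G20Rik, a long noncoding RNA, and XLOC_019302. The last is an assembled transcript without a gene name, and whether it encodes protein was not tested. These circRNAs are all that the deposited table of circRNAs higher in HuD-OE mice pairs with the 3 hosts. They number 4, of 69 in that table and of 14236 measured by the array. Rn45s gave 2 of them and the other hosts gave 1 each. The table was made by the authors from the comparison of HuD-OE with WT on the same 6 arrays, with a limit on the fold change and on an unadjusted p. That contrast therefore chose the members, and the differences between genotypes given below are a description, with standard errors and no p of a member. Where members are said to pass limits on the fold change and the p, nothing is read from it.

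The arrays measured the striatum of adult male C57BL6 mice, 3 HuD-OE and 3 WT littermates, with 1 array per sample. The transgene of HuD-OE mice encodes HuD with a myc tag, an RNA-binding protein of neurons, and is driven by the Camk2a promoter, which is active in neurons of the forebrain. Total RNA was digested with RNAse R, which degrades linear RNA, amplified with random primers and labeled with Cy3. The labels do not say whether the mice came from several litters, so the spread between arrays is that between these samples.

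A circRNA forms when the end of an RNA segment is joined to its own start, which leaves no free end for an exonuclease. Rn45s is transcribed by RNA polymerase I from many repeated copies, and its product is cut into the RNAs of both ribosomal subunits while the spacers between them are degraded. 2810055G20Rik is an older name of Mir99ahg, the host gene of a cluster of microRNAs that holds miR-99a, a let-7c and a miR-125b. Most circRNAs that are studied in brain come from exons of protein-coding genes, and circRNAs of rRNA spacers or unnamed transcripts are less well described.

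Each circRNA is read by 1 spot that carries 60 bases across the back-splice junction. These 4 sequences are shown because they define what was measured, and that of XLOC_010800 because it lies in the same rRNA locus as the Rn45s pair. The letters are those of the deposited tables, 5′ to 3′ on the strand of the circRNA, and the capitals mark the longest run that both Rn45s sequences share.
Rn45s mmu_circRNA_002913: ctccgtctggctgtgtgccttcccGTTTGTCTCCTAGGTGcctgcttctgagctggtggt
Rn45s mmu_circRNA_016746: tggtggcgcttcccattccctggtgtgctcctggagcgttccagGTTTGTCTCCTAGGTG
2810055G20Rik mmu_circRNA_29948: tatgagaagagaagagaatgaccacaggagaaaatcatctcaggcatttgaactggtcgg
XLOC_019302 mmu_circRNA_39139: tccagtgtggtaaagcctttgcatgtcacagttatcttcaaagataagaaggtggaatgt
XLOC_010800 mmu_circRNA_006032: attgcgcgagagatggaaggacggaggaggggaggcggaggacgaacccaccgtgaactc

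The coordinates of the deposited tables are given without a build and fitted GRCm38: 65 of 66 spans lay inside their host gene in GRCm38.p6. The tables also carry positions within alias names, of which 9 of 54 lay inside the host gene. The scanner header names mm9, an earlier build, so the build of the spans rests on the count of 65 of 66, and the alias positions were not used. The position of the junction within the 60 bases was not the same for all sequences. For 5 sequences of the tables that could be matched to RefSeq promoter windows, it lay after base 10, 12, 16, 20 and 50. It is therefore not marked in the sequences above.

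Both Rn45s circRNAs lie on the plus strand of chromosome 17, mmu_circRNA_002913 at chr17:39843393-39843484 and mmu_circRNA_016746 at chr17:39843373-39843448. They span 92 and 76 bases and share 56 of them. The shared run in the printed sequences is 16 bases long and begins at base 25 of one and base 45 of the other. This offset of 20 bases equals the distance between their starts. The nearest annotated feature is Rn18s-rs5, a pseudogene named for 18S rRNA, which begins 2870 bases beyond the end of mmu_circRNA_002913, so both circRNAs lie on the 5′ side of it, where the external spacer of the precursor is found. Since the rRNA repeat has many copies, the position names 1 copy only, and the signal of a spot can come from any copy with these bases. The table classes both as sense overlapping, which means that they come from the strand of the host without matching its exons or introns. The spots do not measure how much linear precursor survived the digestion.

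**Figure D1:**
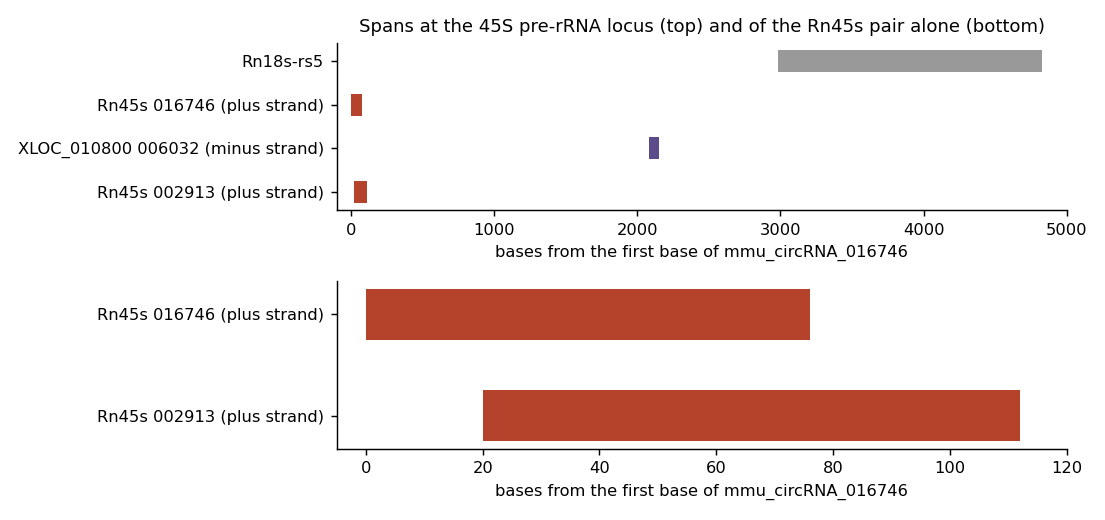
Map of the Rn45s pair, with the distance in bases from the first base of mmu_circRNA_016746 on the horizontal axis. The upper panel places both beside XLOC_010800 mmu_circRNA_006032, which begins at 2083 bases on the opposite strand, and Rn18s-rs5, which begins at 2981 bases; the lower panel shows the 56 bases that the pair shares.

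Both are short. Of 726 circRNAs that the tables used here name, 9 span no more than 92 bases and 6 no more than 76, and the median span is 10901.5 bases. The 60 bases of each Rn45s circRNA have a GC content of 60%, a value that 13 of the 726, or 1.79%, reach, against a median of 45%. The circRNA of 2810055G20Rik spans 2338 bases at chr16:77594622-77596959 on the plus strand and is classed as intronic. It lies 36194 bases beyond the end of Mir99ahg as annotated in GRCm38.p6, 1977 bases before Mir99a and 2698 bases before Mirlet7c-1. The circRNA of XLOC_019302 spans 18385 bases at chr5:109845472-109863856 on the minus strand, is classed as sense overlapping and overlaps Gm35089, a long noncoding RNA. AB010352, a protein-coding gene, lies 1222 bases from its span. Of the 4, the circRNA of XLOC_019302 is also the only one that the study lists as bound by HuD, a list used here for names only. Of the 69 circRNAs of the table, 51 are exonic, 12 sense overlapping, 4 intronic and 2 intergenic, while none of the 4 is exonic. The GC contents of the 60 bases were 43.3% for 2810055G20Rik and 40% for XLOC_019302.

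On every array all 4 circRNAs were well above background, and none of their spots was saturated or marked as an outlier. The level is given as the log2 of the background-corrected intensity relative to the 75th percentile of the array, so 1 unit is a doubling. The array of WT 3 was dim, since 60.3% of its circRNA spots cleared the background by a wide margin, where the remaining arrays had 87.2% to 95.7%, and was read in a scan of its own. The upper end of the intensities also differed between arrays. The 99th percentile exceeded the 75th by 6.40, 5.63 and 4.71 log2 units on HuD-OE 1 to 3, and by 5.20, 6.89 and 7.35 units on WT 1 to 3. The range of bright spots was thus widest on WT 3 and narrowest on HuD-OE 3, and this bears on the levels of bright circRNAs. The Rn45s pair and XLOC_019302 were among these. 2810055G20Rik was less bright on the WT arrays, with levels of 2.68, 3.62 and 0.15 on WT 1 to 3. The part of this range in the results was not tested beyond the other scalings given below. WT 2 and WT 3 also lay in the second row of the slide and the other arrays in the first. No table pairs a spot with Elavl4, the gene of HuD, so the transgene was not checked. Among the markers of striatal neurons and other brain cells, Bcl11b, Foxp1 and Slc1a2 had named circRNAs, each detected on all 6 arrays.

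For Rn45s mmu_circRNA_002913, HuD-OE 1 to 3 had levels of 8.58, 6.94 and 6.89, and WT 1 to 3 had levels of 6.27, 7.75 and 8.14. The groups overlapped throughout, and the highest value was in HuD-OE 1 and the lowest in WT 1. HuD-OE averaged 7.47 ± 0.96 and WT averaged 7.39 ± 0.99 (SD over n = 3 arrays each), a difference of 0.08 ± 0.64 (SE) on the log2 scale. As intensities, the HuD-OE spots read 48618, 9532 and 12602, and the WT spots 9264, 27466 and 12284. The difference was below the spread between arrays of 1 genotype, and 1 array decided its sign. Without HuD-OE 1 it was -0.48, without WT 1 it was -0.48, and without WT 3 it was 0.46. In RNA of whole tissue, here and below, fewer cells with an RNA and less RNA per cell cannot be told apart.

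The other Rn45s circRNA, mmu_circRNA_016746, stood at 6.50, 5.29 and 5.63 on HuD-OE 1 to 3, whereas WT 1 to 3 gave 4.79, 5.13 and 5.53. HuD-OE 1 was again the highest and WT 1 the lowest, and HuD-OE 2 lay below WT 3. HuD-OE averaged 5.81 ± 0.63 and WT averaged 5.15 ± 0.37 (SD over n = 3 arrays each), and the difference was 0.66 ± 0.43 (SE). It stayed above 0 whichever array was left out, between 0.31 without HuD-OE 1 and 0.91 without HuD-OE 2.

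The 2 Rn45s circRNAs overlap in sequence, so they are not independent measurements of the host. After each was centred on its own mean, their 6 values differed by a root mean square of 0.53 log2 units. The distance of XLOC_019302 was similar, 0.52 from mmu_circRNA_002913 and 0.54 from mmu_circRNA_016746. After quantile normalization, which gives every array the same distribution of intensities, the pair differed by 0.35, and XLOC_019302 by 0.45 and 0.52. The 3 distances were thus about equal in the first scaling, and that of the pair was the smallest in the second. These distances rest on 6 arrays and carry no test.

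The circRNA of 2810055G20Rik had the widest separation. On HuD-OE 1 to 3 it had levels of 4.77, 4.80 and 4.89, while WT 1 to 3 gave 2.68, 3.62 and 0.15. The HuD-OE arrays had an SD of 0.06 (n = 3), while the WT arrays had an SD of 1.80 (n = 3), and no WT array reached the HuD-OE values. The means were 4.82 in HuD-OE and 2.15 in WT, a difference of 2.67 ± 0.79 (SE), or 6.36-fold. The dim array WT 3 gave the lowest value, with an intensity of 48.1 against 773 and 1566 in WT 1 and WT 2. Without WT 3, which also leaves 1 scan only, the difference was 1.67 ± 0.36 (SE), or 3.18-fold. Without WT 2 it was 3.41, or 10.6-fold. This circRNA failed the limit on the p given below when the methods' t-test was used.

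The circRNA of XLOC_019302 was at 5.59, 5.65 and 4.89 on HuD-OE 1 to 3, whereas WT 1 to 3 gave 4.34, 5.58 and 5.68. Only WT 1 stood below the HuD-OE arrays, and WT 3 was the highest of the 6. HuD-OE averaged 5.38 ± 0.43 and WT averaged 5.20 ± 0.74 (SD over n = 3 arrays each), a difference of 0.18 ± 0.47 (SE). This too was below the spread between arrays and turned to -0.25 without WT 1, while it was 0.41 without WT 3.

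**Figure D2:**
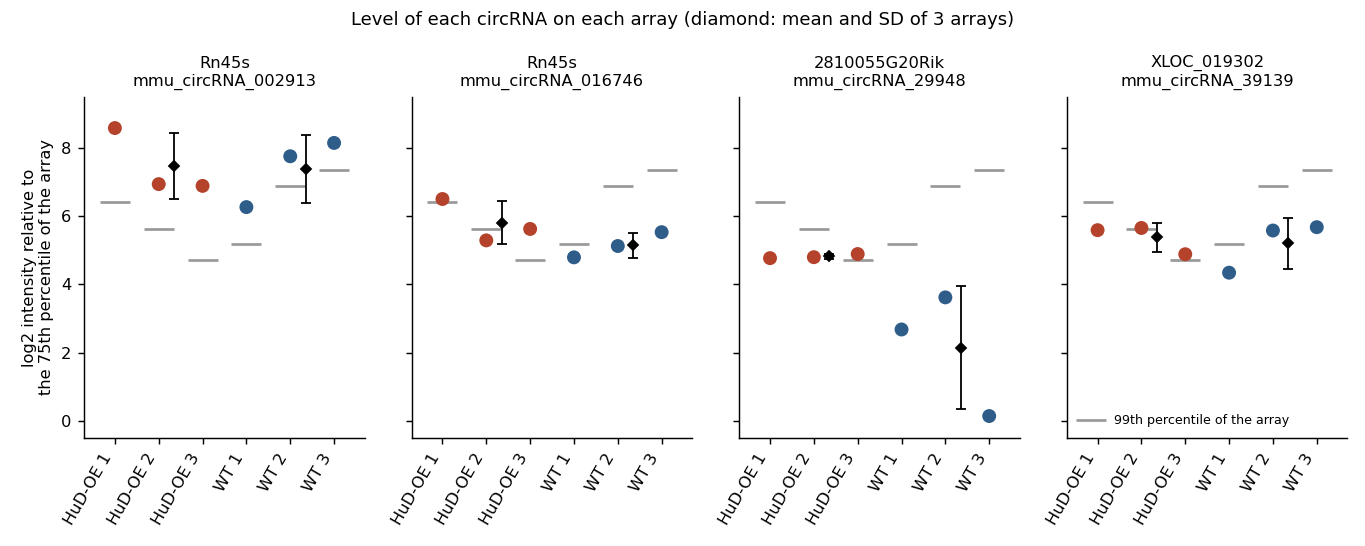
Level of each circRNA on each array, as log2 intensity relative to the 75th percentile of the array, with HuD-OE in red and WT in blue, diamonds and bars for the mean and SD of 3 arrays, and grey marks for the 99th percentile of each array. The groups are separate for 2810055G20Rik, where WT 3 is at 0.15, and overlap for the other 3 circRNAs.

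Of the 4, 1 thus passed both limits used here, a fold change above 1.5 with a p under 0.05 before adjustment (limma), and was higher in HuD-OE: 2810055G20Rik. Over all 13451 circRNAs tested, 338 or 2.51% passed these limits in that direction, and none had an adjusted p under 0.05 (limma with Benjamini-Hochberg adjustment; the smallest was 0.866), with 403 at an unadjusted p under 0.05. All 3 HuD-OE arrays stood above all 3 WT arrays for the same 1 of 4, against 7.38% of all tested. The median difference of the 4 was 0.42, beside 0.15 over all tested. Since the rule used this contrast, nothing is read from these counts.

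The order of a spot within its own array does not depend on how arrays are scaled to each other. Ranks depend on the sequence of each spot as well as on the amount of RNA, so they are compared between arrays for the same spot. Rn45s mmu_circRNA_002913 ranked 42, 63 and 31 among the circRNA spots of HuD-OE 1 to 3, whereas it ranked 62, 94 and 88 on WT 1 to 3. Its groups met at one place, with HuD-OE 2 at rank 63 and WT 1 at 62. Rn45s mmu_circRNA_016746 ranked 140, 173 and 76 on HuD-OE 1 to 3, and its ranks on WT 1 to 3 were 189, 254 and 288. Here the groups did not overlap. XLOC_019302 ranked 195, 141 and 127 on HuD-OE 1 to 3, and its ranks on WT 1 to 3 were 236, 221 and 275, also without overlap.

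For 2810055G20Rik the ranks were 252, 223 and 126 on HuD-OE 1 to 3, whereas WT 1 to 3 gave 539, 428 and 3155. On WT 3, 22.2% of circRNA spots stood at or above it. This share was 3.02% on WT 2, 3.79% on WT 1 and 0.89% to 1.78% in HuD-OE. In rank, 3 of the 4 circRNAs had all HuD-OE arrays ahead of all WT arrays, where 4.99% of all tested circRNAs did. Among the 284 tested circRNAs with a median rank of at most 300, 22 or 7.75% did. That set holds the Rn45s pair and XLOC_019302 but not 2810055G20Rik, whose median rank was 340. The contrast on the same arrays chose the 4, so nothing is read from these rank counts either.

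**Figure D3:**
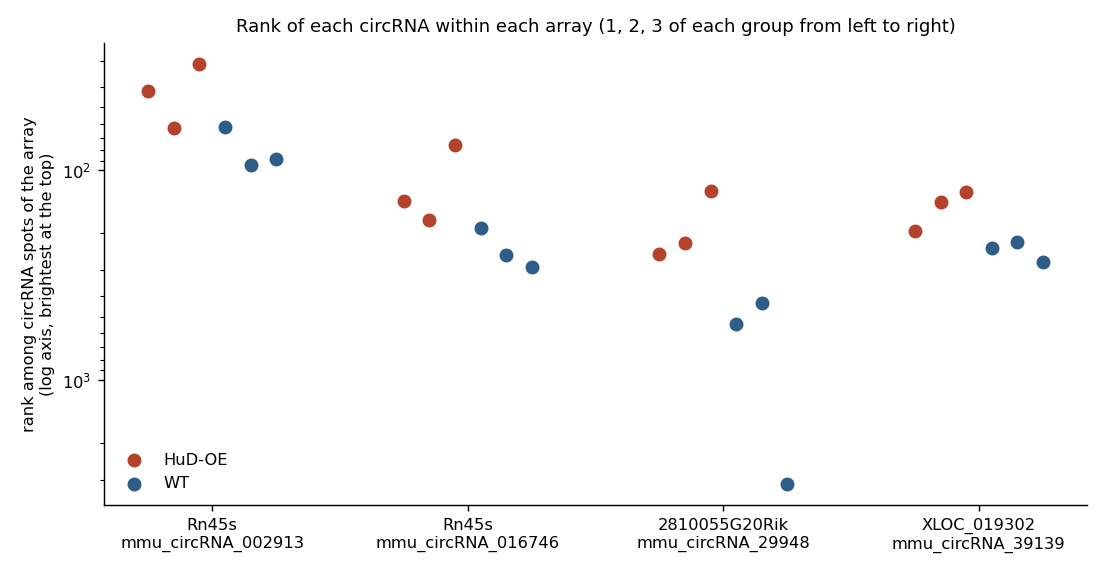
Rank of each circRNA among the circRNA spots of each array on a log axis with the brightest at the top, HuD-OE in red and WT in blue, each group in the order 1, 2, 3. The HuD-OE points lie above all WT points for Rn45s mmu_circRNA_016746, 2810055G20Rik and XLOC_019302, and meet WT 1 for Rn45s mmu_circRNA_002913.

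For bright circRNAs, the comparison of levels depended on the scaling. The 284 circRNAs with a median rank of at most 300 had a median difference of -1.04 (log2, HuD-OE minus WT) relative to the 75th percentile, with quartiles of -1.40 and -0.53. After quantile normalization their median was -0.18, and after cyclic loess, which evens the arrays out along the whole range of brightness, it was 0.01. Relative to the 99th percentile it was -0.08, with quartiles of -0.46 and 0.41.

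After quantile normalization Rn45s mmu_circRNA_002913 read 14.48, 13.87 and 14.92 on HuD-OE 1 to 3, while WT 1 to 3 read 13.92, 13.33 and 13.30, a difference of 0.91 ± 0.38 (SE). Rn45s mmu_circRNA_016746 read 12.62, 12.25 and 13.66 on HuD-OE 1 to 3, while WT 1 to 3 read 12.09, 11.11 and 10.996, a difference of 1.45 ± 0.47 (SE). HuD-OE 3, and no longer HuD-OE 1, was the highest for both. XLOC_019302 read 11.84, 12.68 and 12.84 on HuD-OE 1 to 3, while WT 1 to 3 read 11.57, 11.46 and 11.11, a difference of 1.08 ± 0.37 (SE). 2810055G20Rik read 11.16, 11.65 and 12.86 on HuD-OE 1 to 3, while WT 1 to 3 read 9.55, 9.86 and 6.68, a difference of 3.19 ± 0.83 (SE). WT 3 was the lowest array for all 4 circRNAs. The groups did not overlap for 3 of the 4, all but mmu_circRNA_002913, where 5.11% of all tested circRNAs had every HuD-OE array above every WT array.

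All 4 circRNAs passed both limits after quantile normalization, where 2.36% of all tested circRNAs passed in that direction, and after cyclic loess, where 2.28% did. The contrast on the same arrays chose the 4, so nothing is read from these counts, nor from the groups without overlap above. The differences after cyclic loess were 1.26, 1.56, 3.30 and 1.06 in the order of the sequences above. The median over all tested was 0.00 and -0.03 in these scalings. With WT 3 left out of the quantile normalization, the Rn45s pair stood at 0.81 and 1.22, 2810055G20Rik at 2.11 and XLOC_019302 at 0.90, and mmu_circRNA_002913 no longer passed both limits. With the row of the array on the slide as a block, which leaves WT 1 as the only WT array beside HuD-OE, they were 1.20 ± 0.75, 1.01 ± 0.64, 2.14 ± 1.08 and 1.03 ± 0.58 (SE), and none of the 4 passed both limits. For Rn45s mmu_circRNA_002913 and XLOC_019302, the difference thus moved from near 0 to near 1 with another scaling, and which of these values is nearer the difference in RNA was not tested. The values with the row block set the HuD-OE mean against WT 1 alone, the lowest array for both, and are no second measure of that shift. Relative to the 99th percentile they stood at 1.01 and 1.11, where the median was 1.09 over all tested and -0.08 over the 284 bright circRNAs. The differences of 2810055G20Rik and Rn45s mmu_circRNA_016746 were above 0 under every setting tried.

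**Figure D4:**
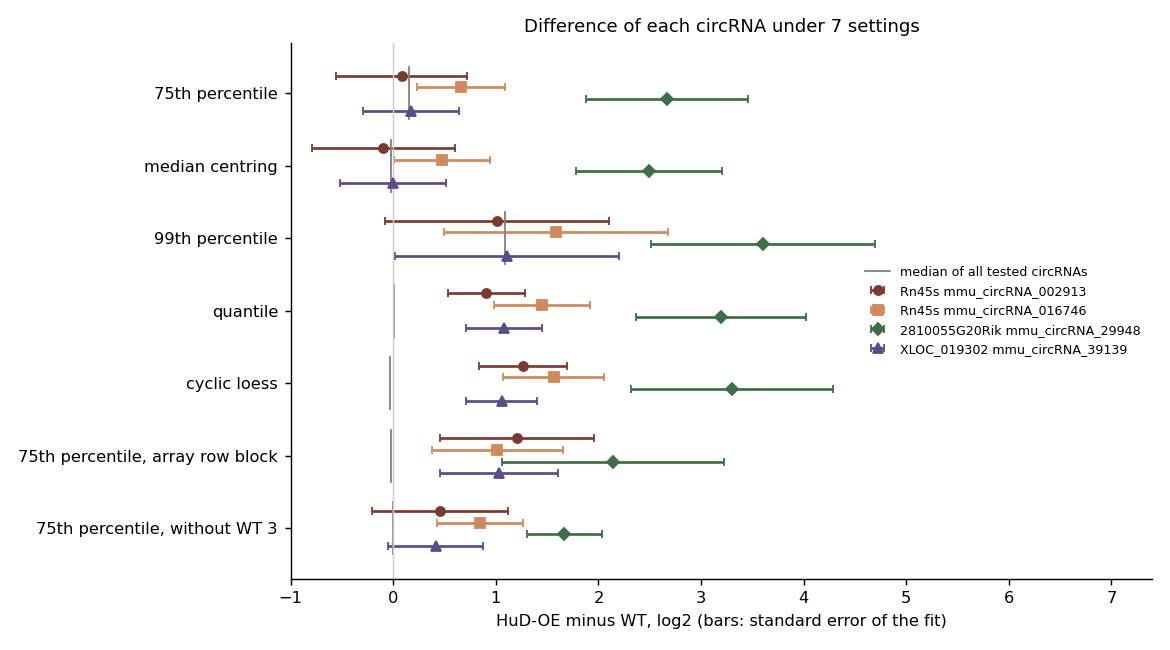
Difference of each circRNA, HuD-OE minus WT on the log2 scale, with bars for the standard error of the fit and a grey line for the median of all tested circRNAs, under 7 settings. Rn45s mmu_circRNA_002913 and XLOC_019302 lie near 0 relative to the 75th percentile (0.08 and 0.18) and near 1 after quantile normalization (0.91 and 1.08). The 99th percentile moves the median of all tested circRNAs to 1.09, while that of the 284 bright circRNAs is -0.08 under it.

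The tables name 13 further circRNAs of 8 hosts that are counted here as noncoding from their transcript or gene names. XLOC_010800 mmu_circRNA_006032, an intronic circRNA of 70 bases at chr17:39845456-39845525 on the minus strand, lies opposite the rRNA precursor. HuD-OE 1 to 3 had levels of 2.47, 1.15 and 2.61, and WT 1 to 3 had levels of 0.16, 1.14 and 0.35, a difference of 1.52 ± 0.50 (SE), with HuD-OE 2 and WT 2 almost level. Rpph1, the RNA of the RNase P that trims the start of tRNAs, had 2 overlapping circRNAs, with differences of 1.06 ± 0.35 and 0.89 ± 0.33 (SE). All 3 of these stand in the same table of higher circRNAs and were chosen by the same contrast.

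The other 10 are named only in the list of bound circRNAs, which the study chose from pulldowns of HuD-OE against WT tissue. Malat1, D7Ertd715e and XLOC_002678 each host more than 1 of them. Some overlap protein-coding genes: Mir8115 mmu_circRNA_24032 overlaps Trim37, the XLOC_002678 pair Slc16a7, and DOKist4 mmu_circRNA_41515 Gm51483. Strands were not compared for these overlaps. DOKist4 mmu_circRNA_41515 differed by 0.93 ± 0.37 (SE) and XLOC_027457 mmu_circRNA_19555 by 0.74 ± 0.40 (SE). The tables pair 3 circRNAs with Malat1, an abundant nuclear RNA. Of these, mmu_circRNA_32201 is on the strand of Malat1 and differed by 0.27 ± 0.50 (SE). The others, mmu_circRNA_008347 and mmu_circRNA_001389, are classed as antisense and lie on the opposite strand, with differences of 0.13 ± 0.53 and 0.13 ± 0.68 (SE). Each of the 3 values was below its standard error in this scaling. After quantile normalization mmu_circRNA_32201 differed by 0.99 ± 0.67, mmu_circRNA_008347 by 0.63 ± 0.53 and mmu_circRNA_001389 by 0.07 ± 0.66 (SE). Of these 10, which the contrast did not choose, DOKist4 passed both limits, 1 of 10 beside 2.51% of all tested. It no longer passed under median centring, relative to the 99th percentile, with trend and robust settings, with the replicate number or the array row as a block, or without HuD-OE 2, HuD-OE 3, WT 2 or WT 3 (the last under quantile normalization too). The background given here is all tested circRNAs, not the bound ones. The median difference of the 10 was 0.37, beside 0.15 over all tested, with 10 of 10 above 0, beside 61.9% of all tested. Without WT 3 the median was 0.10, beside -0.01 over all tested, with 6 of 10 above 0, beside 49.1%. After quantile normalization 2 of the 10 passed, DOKist4 and XLOC_027457, beside 2.36% of all tested, and the median was 0.38. With WT 3 left out of that normalization, 0 of the 10 passed, 6 of 10 were above 0 and the median was 0.15.

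The 4 circRNAs of Rn45s, 2810055G20Rik and XLOC_019302 were not set apart from these hosts by a test, since all 4, and 3 of the 13, were chosen on the contrast. Among ribosomal proteins and factors of ribosome formation, the pathway of Rn45s, the tables name 1 circRNA, that of Rpl4, a protein of the large ribosomal subunit. It stood at 1.83, 1.76 and 1.92 on HuD-OE 1 to 3, whereas WT 1 to 3 gave 0.60, 0.80 and -0.52. The groups did not overlap, and the difference was 1.54 ± 0.43 (SE). This circRNA is also of the table of higher circRNAs.

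**Figure D5:**
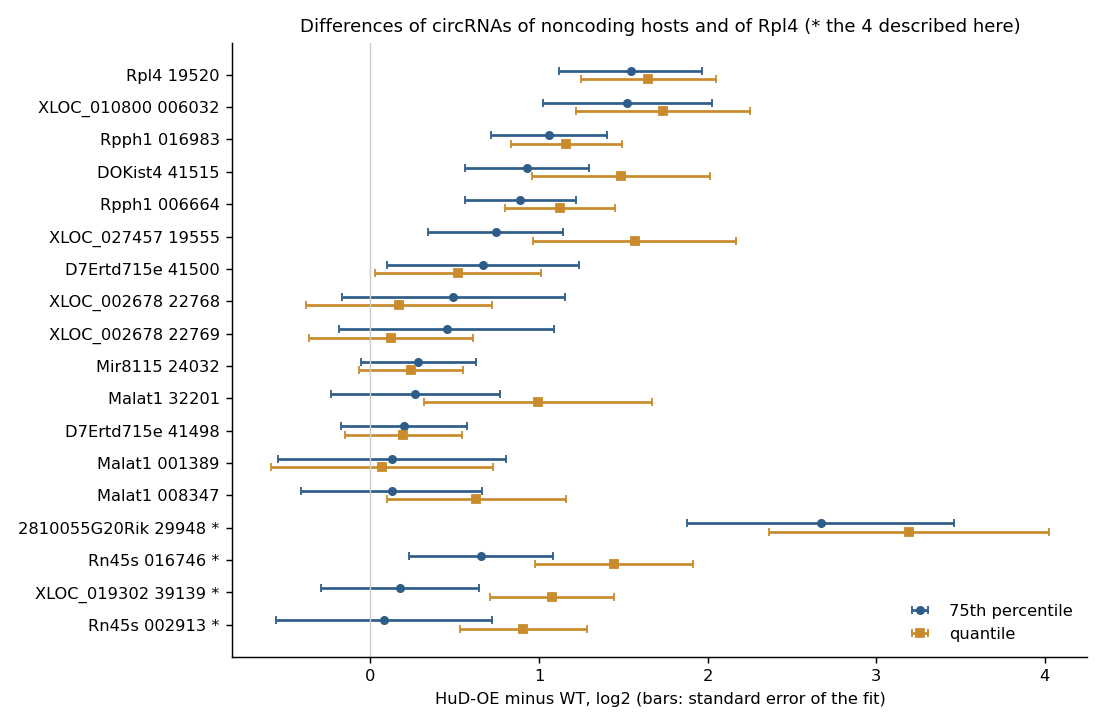
Differences (HuD-OE minus WT, log2) of the 4 circRNAs, marked with an asterisk, the 13 of other hosts counted as noncoding, and that of Rpl4. They are shown relative to the 75th percentile (circles) and after quantile normalization (squares), with bars for the standard error of the fit. The differences of the Rn45s pair, XLOC_019302 and XLOC_027457 grow under quantile normalization, while those of the XLOC_002678 pair shrink (0.49 to 0.17 and 0.45 to 0.12).

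The circRNAs whose levels over the 6 arrays were most like those of each host were sought among the others that the tables name, by the root mean square difference after each was centred on its mean. For Rn45s these were circRNAs of Gsk3b (0.25), a kinase, Prkcb (0.42), a protein kinase C, and Srpk1 (0.42), a kinase of splicing factors, where the median over all candidates was 0.93. For 2810055G20Rik they were circRNAs of Slmo1 (0.15), Atp2b3 (0.19), a calcium pump, and Ubap2 (0.20), where the median was 1.49. Each of these was lowest on WT 3, at -3.25 to -3.04 relative to its own mean. For XLOC_019302 they were circRNAs of Srpk1 (0.17), Fmnl2 (0.21), a formin, and Sult4a1 (0.27), where the median was 0.95. With 6 arrays and at most 716 candidates for each host, such closeness is a description only.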

How the data were processed

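RNA from the striatum of 6 mice, 3 of each genotype, was hybridized to Arraystar Mouse circRNA V2 arrays, 6 in all. Per array, the authors deposited the scanner values, namely the linear intensity of each spot and the intensity after Feature Extraction had corrected it for background, unscaled between arrays. They also deposited 2 tables of their comparison, whose fold changes, p-values and 24 columns of single samples were not used here; names, spans and other annotation columns were. Their notes name limma and the tables an unpaired t-test, and the normalization is not given in the sources used here.

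The log2 of the corrected intensity was used, minus the 75th percentile of the spots other than controls on the same array. Outlier spots were left out. Of 14236 circRNAs, 13451 were detected above background on 3 or more arrays with enough values and were compared by limma 3.58.1 in R 4.3.3 (lmFit and eBayes, two-sided, Benjamini-Hochberg), with limits of 1.5 on the fold change and 0.05 on the p before adjustment. The method was tested on simulated data. The members, comparison hosts and gene lists were chosen with earlier results of these data known. Named circRNAs are the members, all others of noncoding hosts, those of ribosomal and ribosome biogenesis genes, and for each host the 3 closest in level. Alternatives were median centring, quantile normalization, the 75th percentile over spots detected on all 6 arrays, normexp with an offset of 50 or none on the median spot intensity, outliers kept, no filter, a filter on all 6 arrays, blocks for replicate number or array row, the methods' t-test, trend and robust settings, and each array left out. Cyclic loess, the 99th percentile, quantile normalization without WT 3 or on median spot intensities were added after the data were seen. Sequences came from the deposited tables and the study's list of bound circRNAs, and gene positions and promoters from RefSeq (GRCm38.p6). Figures were drawn with matplotlib 3.10.9. Arrays have no sequencing depth, and their number, 3 for each genotype, sets the precision.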

Additional observations from a re-analysis of the deposited data

How the results depend on the processing

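Of the 4 differences, those of 2810055G20Rik and Rn45s mmu_circRNA_016746 stayed above 0 in every setting. That of 2810055G20Rik moved by less than the spread between arrays (1 SD, 1.27) in each, ranging from 1.67 to 3.41 when single arrays were left out. This spread was mostly that of WT, whose SD was 1.80, beside 0.06 in HuD-OE. Without WT 3 the difference fell from 2.67 to 1.67. Rn45s mmu_circRNA_002913 turned to -0.10 under median centring and ranged from -0.48 to 0.46 with single arrays left out; it was 1.26 under cyclic loess and 1.20 when the array row was a block. Rn45s mmu_circRNA_016746 was 1.45 under quantile normalization, 1.56 under cyclic loess, 1.59 under the 99th percentile, 1.22 under quantile normalization without WT 3 and 1.47 when median spot intensities were quantile normalized, and ranged from 0.31 to 0.91 with single arrays left out. XLOC_019302 turned to -0.0023 under median centring and ranged from -0.25 to 0.42 with single arrays left out; in the other settings it was 1.08 (quantile normalization), 1.06 (cyclic loess), 1.11 (99th percentile), 1.01 (median spot intensities quantile normalized), 0.90 (quantile normalization without WT 3) and 1.03 (array row as a block). The 99th percentile moved the median of all tested circRNAs to 1.09, while that of the 284 bright circRNAs, which include the Rn45s pair and XLOC_019302, was -0.08.

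The counts over all circRNAs, 338 higher and 65 lower, were 130 and 300 under normexp with an offset of 50, 74 and 17 when the array row was a block, and 131 higher with the filter on all 6 arrays. Lower circRNAs numbered 99 under quantile normalization, 98 under cyclic loess, 112 with median spot intensities quantile normalized, 128 under normexp without an offset, 20 by the methods' t-test, 39 with trend and robust settings and 0 under the 99th percentile, where 293 circRNAs had an unadjusted p under 0.05, all of them higher (limma). With single arrays left out, the counts ranged from 179 to 776 higher and from 4 to 703 lower; the largest counts came without WT 1. Whether the replicate numbers pair the samples is not stated, and arrays of the same number did not deviate together, with correlations of -0.16, -0.20 and -0.56 over 13353 circRNAs. With the replicate block, 191 were higher and 48 lower; such a block cannot move the differences of the 4 (0.08, 0.66, 2.67 and 0.18), and their standard errors were 0.74, 0.54, 0.72 and 0.55. The cause of these changes was not tested. Arrays hold 1 spot per circRNA, and WT 3 had fewer spots above background.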
